A study of Mus musculus with 9 samples.

Results

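The ADAM, ADAMTS, ADAMTS-like, MMP and TIMP genes were followed in RNA sequencing of sorted mouse neural crest cells. Members were taken by gene name from the table of all genes, and 83 of its 33495 genes matched: 32 Adam, 19 Adamts, 5 Adamtsl, 23 Mmp and 4 Timp genes. The libraries came from C57BL/6 embryos at E9.5, cut just above the first pharyngeal arch and cultured as explants. Explants recovered for 1 h, received endothelin-1 (ET-1, 10 µM) or phosphate-buffered saline (PBS), and were kept for 12 to 15 h before genetically labelled crest cells were sorted. The 9 samples formed 3 groups of 3: a conditional mutant that lacks the transcription factor gene Mef2c in the neural crest, treated with ET-1; wild type treated with ET-1; and wild type treated with PBS. There was no mutant group with PBS, and all groups share the explant culture. Neither the driver of the conditional deletion, nor the label used for sorting, nor the number of embryos in a sample is stated in the sources used here, so the 3 samples of a group may be separate embryos, pools or technical repeats.

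Metzincin proteases bind zinc and cut proteins at or outside the cell surface. ADAM proteins are membrane-anchored and release the outer parts of growth factors, adhesion molecules and Notch receptors, although some members lack the catalytic site and act in adhesion. ADAMTS enzymes are secreted and cut proteoglycans such as versican, process procollagens or act on microfibrils, and ADAMTS-like proteins resemble them without the protease domain. MMPs degrade and remodel the matrix, several of them tethered to the membrane, and TIMPs are secreted proteins that block MMPs and some ADAM and ADAMTS enzymes. Neural crest cells migrate through versican- and fibronectin-containing matrix, and surface proteases of these families have known roles in that migration.

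Levels are in FPKM, the fragments of a gene scaled by its length and by the depth of the group. The table holds them by group and not by sample, so no level here has a replicate error. Depth, recovered from the steps of the FPKM values, was 46930102 pooled reads in the mutant, 19801232 in wild type with ET-1 and 21507319 in wild type with PBS. At 1 FPKM a 1 kb transcript had 46.9, 19.8 and 21.5 reads behind it in that order. Intervals in brackets are exact 95% intervals from pooled reads. They cover counting error only and hold no spread between samples. PCR copies are not independent molecules, so even the counting error may be understated. A gene was called when the p-value of the authors' deposited table, adjusted by the Benjamini-Hochberg method over all genes with at least 1 FPKM in either group, was under 0.05. Rose and fell are used below of called genes alone. The sources used here do not name the test behind the deposited p-values, so how far they hold the spread between samples is not known.

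Mef2c was at 10.1 FPKM in the mutant, 25.2 FPKM in wild type with ET-1 and 7.71 FPKM with PBS, so the mutant stood below wild type with ET-1 and not at 0. Which exons the deletion removes is not stated in the sources used here, so whether these reads come from outside the deleted part was not tested. The crest markers Sox10 (70.9, 61.0 and 35.7 FPKM in the same order) and Foxd3 (14.0, 15.3 and 14.5 FPKM) were present, while the mesenchymal marker Prrx1 stayed under 1 FPKM in every group. Of 6 neural tube markers, Sox2 (37.0, 40.3 and 38.7 FPKM), Pax6 and Neurog2 were measured in all groups, Sox1 in the mutant alone at 0.475 FPKM, and Olig2 and Nkx6-1 in none. Of 8 crest markers, 4 rose with ET-1 among 7 tested, and the summed FPKM of the list was 235 in the mutant, 221 in wild type with ET-1 and 145 with PBS. In a bulk sample, a change in the share of a cell type and a change in RNA per cell cannot be told apart, and the part that this shift has in the results below was not tested. Endothelial markers summed to 2.11, 2.77 and 3.14 FPKM. Of 4 macrophage markers, Ptprc and Emr1 were not measured, while Cd68 was at 12.4 FPKM in the mutant against 5.54 FPKM in wild type with ET-1 (adjusted p = 0.0227 from p in the authors' deposited table; 0.0534 over protein-coding genes alone). Csf1r, the other macrophage marker, was at 0.834 FPKM in the mutant and 0.413 FPKM in wild type with ET-1, and was not tested. Epithelial markers summed to 2.91, 4.09 and 5.94 FPKM in the mutant, wild type with ET-1 and wild type with PBS. Cardiac markers summed to 5.98, 4.71 and 3.02 FPKM in the same order, of which Actc1 alone had 5.74, 4.59 and 2.87 FPKM. Of the other cardiac markers, Myh6 stayed under 1 FPKM, Myl7 was measured in the mutant alone and Tnnt2 in no group. Neither the epithelial nor the cardiac list had a call, with 1 cardiac marker tested in each comparison.

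Promoter sequence is shown for the called members that the RefSeq promoter table holds, because these are the genes whose levels moved. The table gave windows for 52 of 83 members, each 250 bases before and 50 after the start site (build GRCm38.p6). It held 4 of the 7 called members; Adam12, Adamts15 and Mmp17 were the others. Capitals mark matches, on either strand, to the MEF2 consensus, the CArG box bound by SRF, the AP-1 site TGANTCA, the cAMP response element TGACGTCA, the EGR site GCGNGGGCG or the ETS core GGAAGT.
Adam19, chr11:46055734-46056033, plus strand: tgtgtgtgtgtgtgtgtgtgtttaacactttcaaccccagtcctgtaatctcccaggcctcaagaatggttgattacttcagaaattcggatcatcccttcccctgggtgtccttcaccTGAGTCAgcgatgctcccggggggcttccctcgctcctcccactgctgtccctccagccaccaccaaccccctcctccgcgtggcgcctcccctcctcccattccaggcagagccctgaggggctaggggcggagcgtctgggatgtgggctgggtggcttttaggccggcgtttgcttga
Timp3, chr10:86300162-86300461, plus strand: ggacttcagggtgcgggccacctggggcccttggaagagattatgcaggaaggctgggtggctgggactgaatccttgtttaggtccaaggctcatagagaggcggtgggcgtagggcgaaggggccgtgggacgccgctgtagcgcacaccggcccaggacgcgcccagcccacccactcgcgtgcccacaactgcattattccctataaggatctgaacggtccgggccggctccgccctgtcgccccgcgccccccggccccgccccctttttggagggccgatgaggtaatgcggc
Adamts20, chr15:94404301-94404600, minus strand: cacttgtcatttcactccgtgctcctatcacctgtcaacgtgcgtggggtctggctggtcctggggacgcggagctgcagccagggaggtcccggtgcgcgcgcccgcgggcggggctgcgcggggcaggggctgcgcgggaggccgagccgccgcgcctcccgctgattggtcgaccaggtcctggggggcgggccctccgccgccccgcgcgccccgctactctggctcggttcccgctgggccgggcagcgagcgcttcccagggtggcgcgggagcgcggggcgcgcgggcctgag
Adamts13, chr2:26973166-26973465, plus strand: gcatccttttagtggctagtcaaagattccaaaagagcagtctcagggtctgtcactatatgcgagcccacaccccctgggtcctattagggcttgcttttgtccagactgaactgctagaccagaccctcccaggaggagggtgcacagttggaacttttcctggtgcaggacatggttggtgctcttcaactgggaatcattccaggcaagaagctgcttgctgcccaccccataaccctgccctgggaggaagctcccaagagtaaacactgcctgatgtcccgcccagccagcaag

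The Adamts20 window surrounds the RefSeq start, which lies 61068 bases inside the longer GENCODE M21 gene model, so it is not the start of that model; the other 3 start sites lie within 40 bases of theirs. The only match in these 4 windows was an AP-1 site, TGAGTCA, in the Adam19 window, starting 131 bases before the start site. None of the 4 windows held the MEF2 consensus, which 3.19% of all 32851 promoter windows held and, among members, only the Mmp10 window held. The absence of these letters says nothing about binding elsewhere. The windows differed in base composition: Adamts20 had 77.3% G and C with 41 CG steps, Timp3 67.0% with 24, Adam19 60.3% with 11 and Adamts13 54.7% with 2, against a median of 52.7% and 7 over all windows.

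In the Mmp gene cluster of chromosome 9, most genes shared a sequence feature. Its 10 genes (Mmp13, Mmp12, Mmp1b, Mmp3, Mmp1a, Mmp10, Mmp8, Mmp27, Mmp20 and Mmp7) lie between 7272528 and 7699585 on chromosome 9 in build mm9, and none of them was measured in any group. All 10 had a promoter window, and 7 of these held an AP-1 site. Against this stood 4 of the 42 other members with a window and 7.81% of all windows. The motif scan and this contrast were not planned, and no test of them was run. The ETS core lay in 13 of 52 member windows and in 23.8% of all windows. Mmp1a, Mmp3, Mmp7, Mmp8, Mmp12 and Mmp13 of the cluster were among those 13. Mmp1a and Mmp1b also share the letters atagcctctgg after the AP-1 site, so windows of the cluster need not be independent cases. The AP-1 sites lie 35 to 95 bases before the start site. They are shown with 12 bases on either side, 5′ to 3′ on the strand of the gene in GRCm38.p6, with the AP-1 match in capitals.
Mmp13, chr9:7272467-7272497, plus strand: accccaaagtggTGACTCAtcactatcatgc
Mmp3, chr9:7445764-7445794, plus strand: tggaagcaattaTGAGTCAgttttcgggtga
Mmp7, chr9:7692015-7692045, plus strand: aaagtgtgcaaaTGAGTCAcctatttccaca
Mmp10, chr9:7502267-7502297, plus strand: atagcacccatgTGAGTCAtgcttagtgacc
Mmp1a, chr9:7464056-7464086, plus strand: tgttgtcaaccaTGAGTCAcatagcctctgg
Mmp1b, chr9:7388101-7388131, minus strand: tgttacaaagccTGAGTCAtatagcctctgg
Mmp20, chr9:7628124-7628154, plus strand: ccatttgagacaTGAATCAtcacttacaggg

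Mmp7, Mmp10, Mmp3, Mmp1a and Mmp1b share the letters TGAGTCA with Adam19, Mmp13 has TGACTCA, and Mmp20 has TGAATCA. Adam19 was well expressed and rose with ET-1, while the genes of the cluster carrying this site nearer to their start were not measured. Adam1b, the other measured member with TGAGTCA, has it starting 20 bases after the start site. It was at 0.472 FPKM in the mutant, 0.197 FPKM in wild type with ET-1 and 0.251 FPKM with PBS, and had no call. Whether the site has a part in the level of any of these genes was not tested. A matrix metalloprotease promoter with this site close to the start is the textbook case of induction through AP-1 in fibroblasts and tumour cells.

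**Figure D1:**
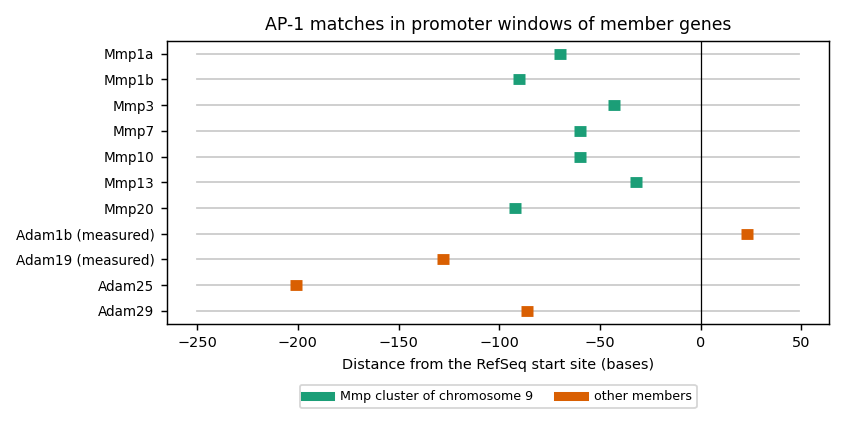
AP-1 matches (coloured blocks) in the promoter windows of the 11 members that hold one, by distance from the RefSeq start site in bases (x axis); grey lines are the windows. The 7 genes of the chromosome 9 Mmp cluster have their match 35 to 95 bases before the start, and Adam19 and Adam1b are the measured genes among the 11.

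Of the 83 members, 51 were measured in all 3 groups, 3 in the mutant alone and 29 in none. Rows of whole numbers with a deposited p of exactly 1 counted as not measured, by the rule that chose the members. Among the 29, 22 had 0 in all groups and the other 7 had whole numbers up to 10. The 13 unmeasured Adam genes were Adam2, Adam3, Adam6b, Adam7, Adam18, Adam24, Adam25, Adam26a, Adam26b, Adam29, Adam33, Adam34 and Adam39, most of them known from testis. The unmeasured secreted members were Adamts16, Adamts18, Adamtsl2, Adamtsl3, Timp4, the gelatinase gene Mmp9 and the 10 Mmp genes of chromosome 9. Adam5, Adam32 and Mmp28 had FPKM in the deeper mutant group alone, at 0.0815, 0.306 and 0.288 FPKM.

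Measured levels ran up to the 28.5 FPKM of Timp3 in the mutant, and 39 of the 51 reached 1 FPKM in at least 1 group, 14 reached 5 FPKM and 10 reached 10 FPKM. Summed over each family, ADAM genes held the most transcript, at 96.7 FPKM in the mutant, 102 FPKM in wild type with ET-1 and 80.8 FPKM with PBS. ADAMTS genes followed at 59.0, 60.2 and 55.3 FPKM in the same order, MMP genes at 48.7, 52.6 and 44.5 FPKM, and ADAMTS-like genes at 3.81, 3.52 and 3.05 FPKM. The 3 measured TIMP genes summed to 38.1 FPKM in the mutant, 31.1 FPKM in wild type with ET-1 and 19.6 FPKM with PBS. TIMP was thus the family with the widest relative spread between groups, and Timp3 made up most of its sum in each.

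**Figure D2:**
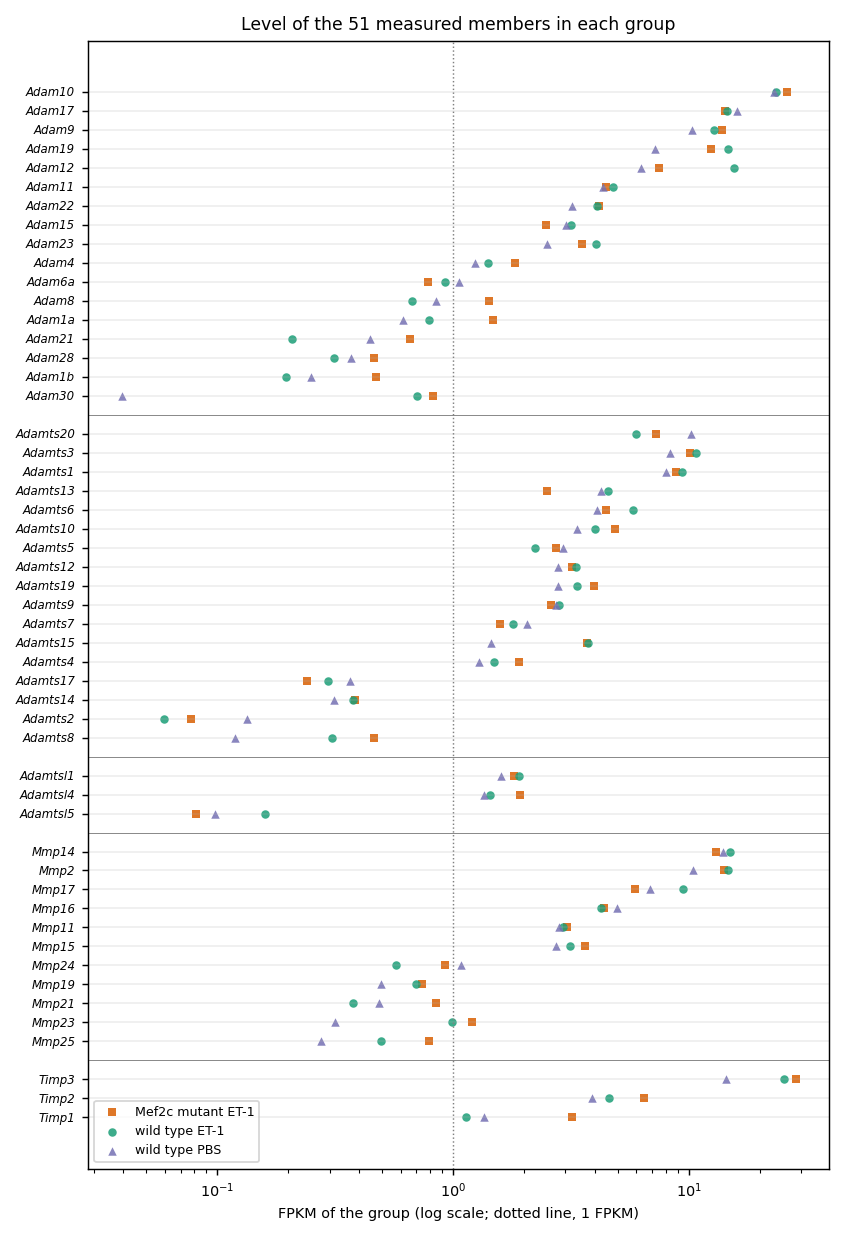
FPKM of each of the 51 measured members (x axis, log scale) in the Mef2c mutant with ET-1 (squares), wild type with ET-1 (circles) and wild type with PBS (triangles), by family. Adam10 and Timp3 lie farthest to the right, and for Adam12, Adam19, Adamts15 and Timp3 the PBS triangle lies left of the ET-1 circle.

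With ET-1 in wild type, 2 of 11 tested ADAM genes, 1 of 13 ADAMTS genes and 1 of 3 TIMP genes rose, and 1 ADAMTS gene fell. Together this was 4 of 36 tested members higher and 1 lower, where 0.39% of all 15395 tested genes were higher and 0.143% lower. In the protein-coding genes the background was 0.468% higher and 0.0936% lower. At an unadjusted p under 0.05 stood 8 of 36 members and 4.51% of all genes. None of the 7 MMP genes and neither of the 2 ADAMTS-like genes passed the test. The median log2 fold (of FPKM + 1) was 0.13 over the 36 members and 0.01 over all tested genes, and 28 of 36 members had a ratio above 1 against 52.3% of all genes. These shares describe the members and are no test of the family.

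Adam12 had the smallest p of the members. It encodes meltrin alpha, a membrane-anchored protease of mesenchyme and muscle precursors that cuts growth factors such as HB-EGF. The gene (ENSMUSG00000054555) lies on the minus strand of chromosome 7 at 141074882 to 141423829 in mm9. Adam12 stood at 7.49 FPKM in the mutant, 15.6 FPKM in wild type with ET-1 and 6.29 FPKM with PBS, on 2909, 2555 and 1120 pooled reads. Wild type with ET-1 was the highest group, and the other groups lay close to each other. ET-1 raised it 2.48-fold over PBS (2.31 to 2.66), with an adjusted p = 4.62e-11 from p in the authors' deposited table. In the mutant it was 0.480 of wild type with ET-1 (0.455 to 0.507), with an adjusted p = 2.20e-10 from p in the authors' deposited table. The ratio of the mutant to wild type with PBS was 1.19 (1.11 to 1.28), for which the table holds no p-value.

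Adam19, which encodes meltrin beta, a related protease that cuts neuregulins and is needed for the endocardial cushions of the mouse heart, also rose with ET-1. The gene (ENSMUSG00000011256) lies on the plus strand of chromosome 11 at 45869494 to 45960845 in mm9. Its level was 12.4 FPKM in the mutant, 14.7 FPKM in wild type with ET-1 and 7.22 FPKM with PBS. Both ET-1 groups lay above the PBS group. The rise was 2.03-fold (1.88 to 2.19), with an adjusted p = 8.23e-06 from p in the authors' deposited table. In the mutant Adam19 was at 0.844 of wild type with ET-1 (0.799 to 0.891), which did not pass the test (adjusted p = 0.455 from p in the authors' deposited table). In the GENCODE M21 annotation 10.1% of its exon bases overlap the gene models Gm16033 and Gm16034.

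Timp3 was the most abundant of the called members and the leading TIMP gene in each group. Its product binds to the matrix and inhibits MMPs, ADAM17 and the proteoglycan-cutting ADAMTS enzymes. The gene (ENSMUSG00000020044) lies on the plus strand of chromosome 10 at 85763117 to 85812251 in mm9. It had 28.5 FPKM in the mutant, 25.3 FPKM in wild type with ET-1 and 14.4 FPKM with PBS, or the 85.2, 83.4 and 71.2 percentile of all genes measured in each group. ET-1 raised it 1.76-fold (1.67 to 1.87; adjusted p = 9.89e-05 from p in the authors' deposited table). The mutant ratio to wild type with ET-1 was 1.12 (1.08 to 1.17), which did not pass the test (adjusted p = 0.943 from p in the authors' deposited table). Of its exon bases 21.3% overlap Syn3 in GENCODE M21, and the labels do not say that counting used strand. Syn3 itself was at 1.67, 1.01 and 0.745 FPKM in the mutant, wild type with ET-1 and wild type with PBS.

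Adamts15, whose product cuts versican and aggrecan, had the largest ratio with ET-1 among the 36 tested members. The gene (ENSMUSG00000033453) lies on the minus strand of chromosome 9 at 30706740 to 30730037 in mm9. Its level was 3.71 FPKM in the mutant, 3.74 FPKM in wild type with ET-1 and 1.45 FPKM with PBS. The ET-1 groups were nearly equal and both lay above PBS. The rise with ET-1 was 2.58-fold (2.28 to 2.92), with an adjusted p = 0.00578 from p in the authors' deposited table. The ratio of the mutant to wild type with ET-1 was 0.993 (0.917 to 1.08; adjusted p = 0.994 from p in the authors' deposited table). Its neighbour Adamts8, which starts within 1 Mb of it on the same chromosome, was low at 0.465, 0.308 and 0.119 FPKM and was not tested.

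Adamts20 was the member that fell with ET-1. It encodes a secreted protease related to ADAMTS9, and its loss causes the belted coat pattern of mice, in which pigment cells are missing from a band of the trunk. The gene (ENSMUSG00000022449) lies on the minus strand of chromosome 15 at 94100594 to 94295849 in mm9. It had 7.24 FPKM in the mutant, 5.96 FPKM in wild type with ET-1 and 10.3 FPKM with PBS, so the PBS group was the highest. With ET-1 it was 0.581 of PBS (0.538 to 0.626; adjusted p = 0.00181 from p in the authors' deposited table). The mutant ratio to wild type with ET-1 was 1.22 (1.13 to 1.31), which did not pass the test (adjusted p = 0.794 from p in the authors' deposited table). Adamts9, its closest relative, had 2.62, 2.82 and 2.74 FPKM in the mutant, wild type with ET-1 and wild type with PBS.

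**Figure D3:**
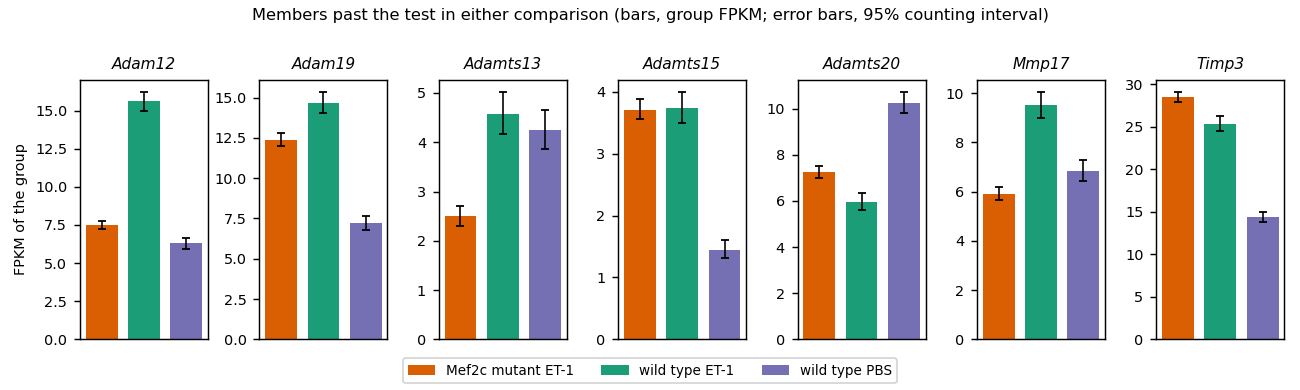
FPKM (y axis, a scale for each gene) of the 7 members past the test in either comparison, in the Mef2c mutant with ET-1, wild type with ET-1 and wild type with PBS from left to right; error bars are 95% counting intervals from pooled reads. Adam12 and Mmp17 peak in wild type with ET-1, the bars of Adam19, Adamts15 and Timp3 stand above PBS in both ET-1 groups, Adamts20 is highest with PBS, and Adamts13 is lowest in the mutant.

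In the mutant, both groups having received ET-1, 3 of 37 tested members were lower than in wild type and 0 were higher. Among all 15459 tested genes 3.75% were lower and 1.18% higher, and in the protein-coding genes, a restriction added on seeing these results, 1.03% were lower and 0.7% higher. With the adjustment over protein-coding genes the members' count was 2 of 37 lower, so the count is small under both and is given gene by gene. At an unadjusted p under 0.05 stood 5 of 37 members and 11.6% of all genes. The median log2 fold was 0.03 over the members and 0.05 over all genes tested. The members lower in the mutant were Adam12, described above, Adamts13 and Mmp17. Between the same groups the 4 measured erythroid markers summed to 12.2 FPKM in the mutant against 22.8 FPKM in wild type with ET-1, with 0 of 3 tested called, and the 2 measured macrophage markers to 13.2 against 5.96 FPKM, with Cd68 called over all genes and not over protein-coding genes alone. Among the crest markers Tcfap2b was higher in the mutant, at 1.52 times its level in wild type with ET-1 (adjusted p = 0.00499 from p in the authors' deposited table). Ets1 was lower, at 24.1 against 31.7 FPKM (adjusted p = 0.0372 from p in the authors' deposited table; 0.0811 over protein-coding genes alone). Their part in the results on the members was not tested.

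Adamts13 encodes the protease that cuts von Willebrand factor in plasma. The gene (ENSMUSG00000014852) lies on the plus strand of chromosome 2 at 26828936 to 26865148 in mm9. It had 2.50 FPKM in the mutant, 4.57 FPKM in wild type with ET-1 and 4.25 FPKM with PBS, so the mutant was low and the wild-type groups were close. The mutant held 0.547 of the wild-type level with ET-1 (0.482 to 0.620; adjusted p = 0.0127 from p in the authors' deposited table). With ET-1 in wild type its ratio to PBS was 1.08 (0.942 to 1.23), which did not pass the test (adjusted p = 1 from p in the authors' deposited table).

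Mmp17 encodes an MMP held at the membrane by a lipid (GPI) anchor. The gene (ENSMUSG00000029436) lies on the plus strand of chromosome 5 at 130090088 to 130114085 in mm9. Its level was 5.90 FPKM in the mutant, 9.51 FPKM in wild type with ET-1 and 6.84 FPKM with PBS, highest in wild type with ET-1. The mutant held 0.620 of the wild-type level with ET-1 (0.578 to 0.666; adjusted p = 0.0225 from p in the authors' deposited table), a call that was lost when p was adjusted over protein-coding genes alone (adjusted p = 0.0532 from p in the authors' deposited table). In wild type the ratio of ET-1 to PBS was 1.39 (1.28 to 1.51) and did not pass the test (adjusted p = 1 from p in the authors' deposited table).

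**Figure D4:**
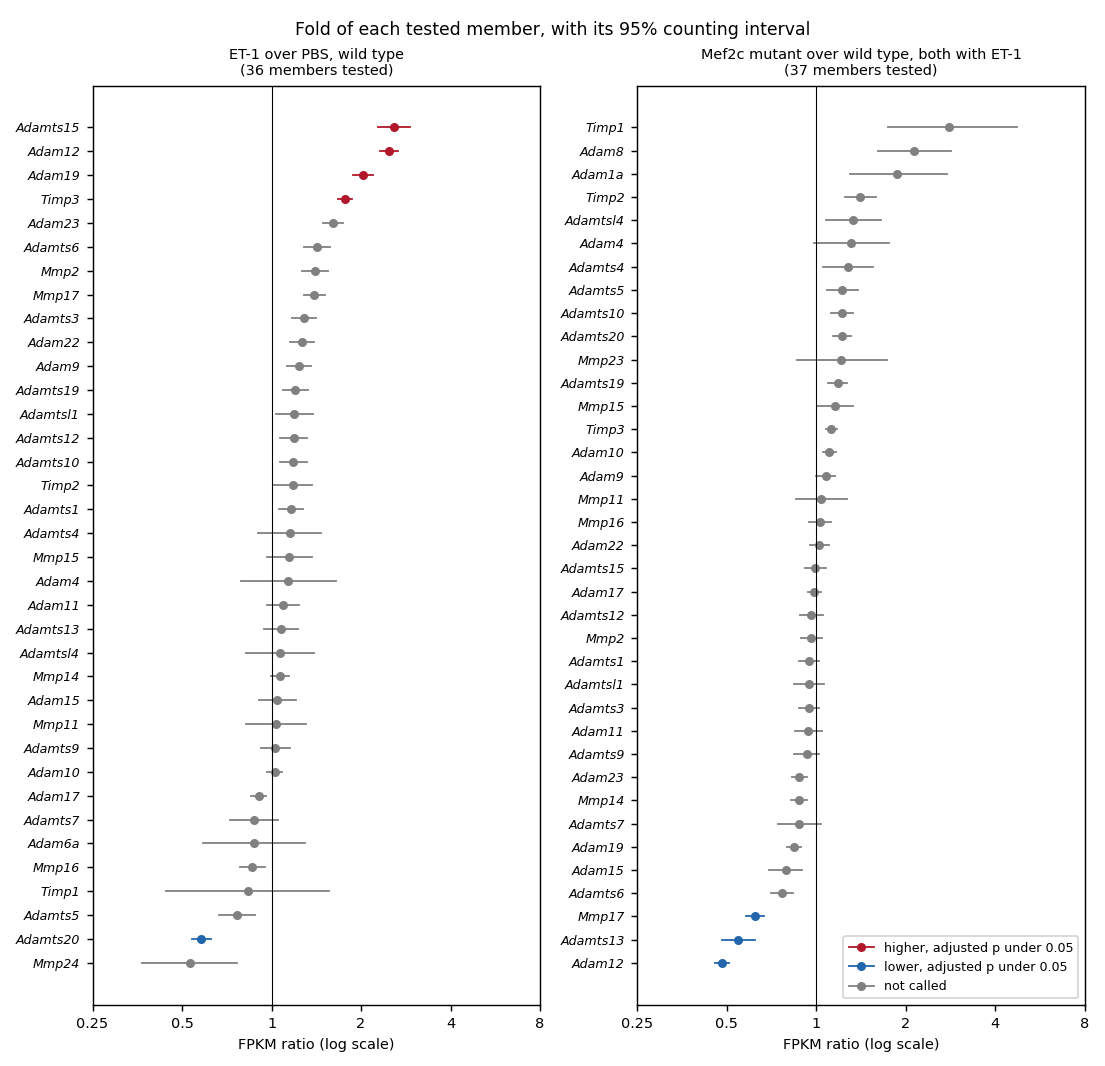
FPKM ratio (x axis, log scale) of each tested member for ET-1 over PBS in wild type (left) and for the Mef2c mutant over wild type with ET-1 (right), with 95% counting intervals as bars; red and blue mark calls. Adamts15, Adam12, Adam19 and Timp3 are called at the top of the left panel, and Mmp17, Adamts13 and Adam12 at the foot of the right panel; Timp1 has the highest ratio on the right with a wide interval.

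Of the sheddases of broad use, Adam10, Adam17 and Adam9 were abundant and Adam15 was lower, and no difference passed the test. Adam10, the main protease that cuts Notch receptors after ligand binding, had 26.0 FPKM in the mutant, 23.5 FPKM in wild type with ET-1 and 22.9 FPKM with PBS. Its ratio of ET-1 to PBS was 1.02 (0.967 to 1.09) and its ratio of mutant to wild type 1.11 (1.06 to 1.16). Adam17, which releases TNF and ligands of the EGF receptor, had 14.3, 14.5 and 16.0 FPKM in the mutant, wild type with ET-1 and wild type with PBS. Adam9 stood at 13.8, 12.8 and 10.4 FPKM in the same order. For the ET-1 comparison these ratios were 0.905 (0.853 to 0.960) for Adam17 and 1.24 (1.13 to 1.36) for Adam9. Adam15 had 2.49, 3.17 and 3.03 FPKM.

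Adam11, Adam22 and Adam23, which lack a catalytic site, lay between 2.51 and 4.76 FPKM. Adam11 had 4.47 FPKM in the mutant, 4.76 FPKM in wild type with ET-1 and 4.35 FPKM with PBS. Adam22, a receptor for LGI proteins in the nervous system, had 4.17, 4.08 and 3.21 FPKM in the same order. Adam23, another LGI receptor, stood at 3.54, 4.04 and 2.51 FPKM, and its ratio of ET-1 to PBS was 1.61 (1.49 to 1.73), which did not pass the test (adjusted p = 0.263 from p in the authors' deposited table). Adam8, a leukocyte and tumour sheddase, had 1.42 FPKM in the mutant against 0.671 FPKM in wild type with ET-1, a ratio of 2.12 (1.61 to 2.84) that did not pass the test (adjusted p = 0.365 from p in the authors' deposited table).

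Several low ADAM genes are uncertain because they share sequence. Adam1a was at 1.49 FPKM in the mutant, 0.795 FPKM in wild type with ET-1 and 0.614 FPKM with PBS, but 63.7% of its exon bases overlap other genes, Mapkapk5 and Tmem116 among them. Adam1b, which lies beside it on chromosome 5, and Adam6a have 32.4% and 29.5% of their 50-base words in other genes. Adam4 (1.84, 1.41 and 1.24 FPKM), Adam21 and Adam28 stayed low in the mutant, wild type with ET-1 and wild type with PBS. Adam30, a single-exon gene known from testis, had 91 pooled reads in the mutant, 33 in wild type with ET-1 and 2 with PBS, a ratio of ET-1 to PBS of 17.9 (4.58 to 154) at under 1 FPKM, and was not tested.

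The other proteoglycan-cutting enzymes showed no call. Adamts1 had 8.85 FPKM in the mutant, 9.34 FPKM in wild type with ET-1 and 8.03 FPKM with PBS. Adamts5, the aggrecanase next to it on chromosome 16, had 2.74, 2.23 and 2.92 FPKM, with a ratio of ET-1 to PBS of 0.765 (0.667 to 0.878). Adamts4 stayed under 2 FPKM in every group. Thus of the enzymes of this kind above 1 FPKM (Adamts1, Adamts4, Adamts5, Adamts9, Adamts15 and Adamts20), Adamts15 rose and Adamts20 fell with ET-1 in wild type. Versican, their shared substrate, is encoded by Vcan, which had 36.6 FPKM in the mutant, 42.7 FPKM in wild type with ET-1 and 32.2 FPKM with PBS, with neither comparison past the test (adjusted p = 0.303 for the mutant and 0.223 for ET-1, from p in the authors' deposited table).

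Among the procollagen-processing enzymes, Adamts3 was the expressed member. Its level was 10.1 FPKM in the mutant, 10.7 FPKM in wild type with ET-1 and 8.33 FPKM with PBS. Adamts2 lay at 0.0776, 0.0595 and 0.134 FPKM and Adamts14 at 0.385, 0.379 and 0.313 FPKM in the same order. The microfibril-linked Adamts6 had 4.46, 5.82 and 4.08 FPKM, with a ratio of ET-1 to PBS of 1.43 (1.29 to 1.58; adjusted p = 0.817 from p in the authors' deposited table) and of mutant to wild type of 0.767 (0.706 to 0.833; adjusted p = 0.290 from p in the authors' deposited table). Adamts10, which also acts on microfibrils, had 4.88, 4.00 and 3.38 FPKM. Adamts12 (3.21, 3.33 and 2.81 FPKM) and Adamts7 (1.58, 1.80 and 2.06 FPKM), which cut cartilage oligomeric matrix protein, and Adamts19 (3.96, 3.36 and 2.79 FPKM) showed no call, and Adamts17 stayed under 0.4 FPKM.

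The ADAMTS-like genes were low. Adamtsl1 had 1.81 FPKM in the mutant, 1.91 FPKM in wild type with ET-1 and 1.60 FPKM with PBS, and Adamtsl4, which binds fibrillin microfibrils, had 1.92, 1.44 and 1.35 FPKM. Adamtsl5 rested on 18, 15 and 10 pooled reads.

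Mmp14 and Mmp2 led the MMP family. Mmp14, a transmembrane collagenase that activates the gelatinase precursor proMMP2, had 13.1 FPKM in the mutant, 15.0 FPKM in wild type with ET-1 and 14.0 FPKM with PBS. Mmp2, that gelatinase, had 14.1, 14.7 and 10.5 FPKM in the same order, with a ratio of ET-1 to PBS of 1.40 (1.26 to 1.55) that did not pass the test (adjusted p = 0.907 from p in the authors' deposited table). Timp2, which also takes part in activating proMMP2, had 6.44, 4.58 and 3.89 FPKM, with a ratio of mutant to wild type of 1.41 (1.25 to 1.59; adjusted p = 0.553 from p in the authors' deposited table). The set of Mmp14, Mmp2 and Timp2 was therefore present in every group, while the other gelatinase gene, Mmp9, was at 0 in all.

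The other membrane-bound MMPs differed in level more between genes than between groups. Mmp16 had 4.38 FPKM in the mutant, 4.26 FPKM in wild type with ET-1 and 4.95 FPKM with PBS, and Mmp15 had 3.62, 3.14 and 2.74 FPKM. Mmp24, the membrane MMP of neurons, was at 0.927, 0.574 and 1.08 FPKM, the smallest ratio of ET-1 to PBS among tested members at 0.532 (0.365 to 0.764; adjusted p = 1 from p in the authors' deposited table), and 13.6% of its exon bases overlap BC029722. Mmp25, the other GPI-anchored enzyme, was under 1 FPKM. Of the secreted ones, Mmp11 had 3.04, 2.93 and 2.82 FPKM, and Mmp19 and Mmp21 stayed under 1 FPKM. Mmp23 had 132 pooled reads in the mutant, 46 in wild type with ET-1 and 16 with PBS.

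Timp1, an inhibitor secreted by many stromal cells, was at 3.19 FPKM in the mutant, 1.14 FPKM in wild type with ET-1 and 1.36 FPKM with PBS. Its ratio of mutant to wild type was the largest of the tested members, 2.81 (1.75 to 4.74), but it rested on 133 and 20 pooled reads and did not pass the test (adjusted p = 0.517 from p in the authors' deposited table). All 3 measured TIMP genes had a ratio of mutant to wild type above 1, as did 19 of the 37 tested members and 57.2% of all tested genes, and 0 of the 3 were called.

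The authors' deposited table of induced genes lists 8 members among its 406 genes, which is 15.7% of the 51 measured members and 2.27% of all 17856 genes measured in wild type. How the list was drawn up is not stated in the sources used here. The largest unadjusted p among its genes in the authors' deposited table was 0.04999. For the members its p-values are the same deposited values used above, so the list is no second source. Besides the 4 members that rose here, the authors' deposited table lists Adam23, Adam30, Adamts6 and Mmp2, with normalized induction folds of 1.59, 8.86, 1.41 and 1.37. For Adam30, at 2 pooled reads with PBS, that normalized fold is below the plain FPKM ratio of 17.9. A MEF2 motif was marked in the authors' deposited table for 7 of the 8 members, all but Timp3, and for 83.3% of the 406 genes. Adam19 carries this mark although its promoter window above held no MEF2 consensus. The mark and the window scan need not cover the same region or motif, so the shares are not compared. Dependence on Mef2c was marked in the authors' deposited table for Adam12 and Adamts6, 2 of 8, and for 18.0% of the 406. Adamts6 carries that mark at an unadjusted p = 0.0261 in the authors' deposited table, whereas the adjusted value above did not pass.

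Partners and substrates of these proteases were followed in 8 lists of 61 genes. With ET-1 in wild type 0 of 47 tested rose or fell, at the background of 0.39% and 0.143% given above, and in the mutant 1 of 49 was higher and 2 were lower, where all genes had 1.18% and 3.75%. The unadjusted p was under 0.05 for 6 of 47 in the ET-1 comparison and for 11 of 49 in the mutant one, beside 4.51% and 11.6% of all genes in the authors' deposited table. In the list of 9 genes for other inhibitors and the MMP inducer basigin, Serpine2, an inhibitor of thrombin and plasminogen activators, was lower in the mutant at 5.68 FPKM against 10.5 FPKM in wild type with ET-1 (adjusted p = 0.000491 from p in the authors' deposited table). Wild type with PBS had 9.15 FPKM of Serpine2. In the same list Bsg (basigin) was the most abundant gene, at 122, 120 and 112 FPKM in the mutant, wild type with ET-1 and wild type with PBS, and the membrane-anchored MMP inhibitor Reck had 10.4, 10.9 and 10.5 FPKM. Of the 17 shed substrates, Cd44, the hyaluronan receptor, was lower in the mutant at 1.73 FPKM against 3.21 FPKM in wild type with ET-1 (adjusted p = 0.0113 from p in the authors' deposited table). Its level in wild type with PBS was 2.89 FPKM. The most abundant substrate genes were Efnb2 and App, each at 55.3 FPKM in the mutant. Their ratios of mutant to wild type with ET-1 were 1.22 (1.19 to 1.26) for Efnb2 and 1.11 (1.08 to 1.13) for App, and neither passed the test. Of 7 microfibril genes, Thsd4, an ADAMTS-like gene under another name, was higher in the mutant at 1.78 FPKM against 0.964 FPKM in wild type with ET-1 (adjusted p = 0.0446 from p in the authors' deposited table), a call lost over protein-coding genes alone (0.0924), and Fbn2 led at 21.7 and 27.7 FPKM. With PBS, wild type had 0.569 FPKM of Thsd4.

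The remaining lists had 0 calls in both comparisons. Among 4 proprotein convertases, which remove the prodomain of these enzymes, Pcsk7 was the most abundant in the mutant at 6.57 FPKM against 4.10 FPKM in wild type with ET-1, and Furin had 4.75 and 6.38 FPKM (adjusted p = 0.259 for Pcsk7 and 0.142 for Furin, from p in the authors' deposited table). Of 8 escorts of ADAM10 and ADAM17, Tspan14 had 18.4, 16.8 and 20.6 FPKM and Tspan5 15.4, 16.4 and 15.7 FPKM in the mutant, wild type with ET-1 and wild type with PBS. Psenen led the 6 gamma-secretase genes at 64.0, 68.8 and 74.0 FPKM. Bmp1 led the 6 astacin and plasminogen activator genes at 7.65, 7.51 and 7.19 FPKM, and Vcan, given above, led the 4 hyalectan genes. With no mutant group in PBS, a difference that the mutant has without ET-1 and an altered response of the mutant cannot be told apart. Both comparisons share the wild-type group with ET-1, so a high value there moves both ratios of a gene.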

How the data were processed

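RNA was sequenced from sorted neural crest cells in 9 samples, 3 in each of 3 groups. TopHat 1.3.1, Cufflinks 1.3.0, Cuffdiff and the mm9 build appear in the submitters' processing notes, with no role or settings. Per the file headers, the authors deposited 1 FPKM value per group and, for each comparison, a p-value. The sources used here do not say how replicates were combined. Per the file headers, a further deposited table gives a normalized induction fold (a ratio) for genes the authors list as induced. There were 0 columns of other samples. The test planned for values per sample could not be used.

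The deposited p-values were adjusted after Benjamini and Hochberg, over the genes measured in both groups that reached 1 FPKM in at least 1 of them. Log2 folds used a pseudocount of 1, which understates changes of low genes. Depth was taken from single-exon genes, where 92.4% to 92.8% of values came out as whole reads within 0.02. Reads were recovered for 54 of 54 members with a value, using a model length near the exon length of GENCODE M21; 53 lengths lay within 2-fold of it. A wrong length changes an interval, not a fold. Intervals are exact Clopper-Pearson (folds) and Poisson (levels) at 95%. The adjustment and the depth estimate were run on simulated data with known answers, which checks the code alone. Such a run cannot show whether the deposited p-values are well calibrated or how the group FPKM was formed. Starts are counted from 1, and gene coordinates are those of mm9; promoters and annotation overlaps are from GRCm38. Python 3.11.15, pandas 2.3.3 and scipy 1.17.1 were used.

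Members and lists were chosen with earlier results of these data known. Members named are those past the test, those with at least 5 FPKM in any group and the 3 with the largest and smallest log2 fold in each comparison; other members are given by role. From the lists, genes past the test and the most abundant gene of each are named, and other list genes named were chosen after their values were seen. The alternatives tried were the filter on low values, the threshold, a minimum fold, the pseudocount, the scaling and the annotated class.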

Additional observations from a re-analysis of the deposited data

How the results depend on the processing

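The 5 members called with ET-1 were Adam12, Adam19, Adamts15 and Timp3 (higher) and Adamts20 (lower). They kept their calls without a filter on low values and over protein-coding genes alone. A call at 0.05 holds at an adjusted p under 0.10 by definition, and that threshold added no member in either comparison. At 5 FPKM or more in either group Adamts15 was not tested and the other 4 kept theirs. In the mutant the same minimum left Adam12 and Mmp17 lower and Adamts13 not tested. With a plain FPKM ratio of at least 2 required, 3 members rose and 0 fell with ET-1 (27 and 11 of all genes, 0.175% and 0.0715%), and 1 member, Adam12, was lower in the mutant (85 higher and 377 lower of all genes, 0.55% and 2.44%). Over protein-coding genes alone, a restriction added on seeing these results, 11 of all genes fell with ET-1, and in the mutant 83 were higher and 122 lower; Adam12 and Adamts13 remained lower and Mmp17 did not, and of the list genes Thsd4, Cd68 and Ets1 lost their calls while Serpine2, Cd44 and Tcfap2b kept them. Fewer genes in the adjustment would by itself lower an adjusted p. The share of genes called in the mutant was also smaller, at 1.03% lower and 0.7% higher over protein-coding genes. Over all genes it was 3.75% lower and 1.18% higher. Why these shares differ was not tested. The median log2 fold of the members in the mutant was 0.03, and -0.012 after median-of-ratios scaling, which shifts all ratios by 0.05 there and by 0.02 with ET-1. The direction of each call was read from the same group FPKM in every alternative, so it could not change sign. The pseudocount and the scaling entered the log2 folds alone and not the calls. No paired analysis was possible because the columns hold group values, and for the same reason no replicate could be left out. Depth limits Timp1 (20 pooled reads in wild type with ET-1), Adam30 (2 with PBS) and Mmp23 (16 with PBS).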
